A study of Mus musculus with 18 samples.

Results

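The mRNAs of 10 enzymes of serine and one-carbon metabolism, Phgdh, Psat1, Psph, Shmt1, Shmt2, Mthfd1, Mthfd2, Mthfd1l, Aldh1l2 and Gldc, were followed through polysome gradients of mouse embryonic stem cells (ESCs). They were taken by gene symbol from the 51467 genes counted, and all 18 libraries were used. The wild-type (WT) cells were the V6.5 line, and the Dgcr8 KO cells were a single line made earlier that lacks Dgcr8. DGCR8 is the RNA-binding partner of DROSHA and is needed to process primary microRNA transcripts, so these cells lack canonical microRNAs. Both genotypes grew in medium with serum, LIF and 2i (the inhibitors PD0325901 and CHIR99021) and were exposed to 100 ug/ml cycloheximide, which holds ribosomes on mRNAs, for 2 min. From each of 3 gradients per genotype, on 10 to 50% sucrose, the monosome, low polysome (2 to 4 ribosomes) and high polysome (4 or more ribosomes) fractions were sequenced at the 3′ ends of transcripts, which makes 6 groups of 3 libraries. Nothing in the labels says that the 3 gradients of a genotype came from separate cultures, so p-values measure the spread between these gradients, which may be technical. Each genotype was a single line, so loss of Dgcr8 and other differences between the lines cannot be told apart.

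Cells make serine from the glycolytic intermediate 3-phosphoglycerate by PHGDH, PSAT1 and PSPH, in that order. SHMT1 in the cytosol and SHMT2 in mitochondria convert serine to glycine and pass its side-chain carbon to tetrahydrofolate. In mitochondria, MTHFD2 and MTHFD1L carry that carbon on to formate, which leaves for the cytosol and is attached to tetrahydrofolate again by MTHFD1 for purine, thymidylate and methionine synthesis. ALDH1L2 oxidises mitochondrial 10-formyltetrahydrofolate to carbon dioxide, and GLDC is the decarboxylase of the glycine cleavage system, a second source of mitochondrial one-carbon units. Pluripotent cells are known for a high demand for one-carbon units. The transcription factor ATF4, best known from the response to amino acid shortage, activates many genes of this pathway.

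Library totals ranged from 1151649 to 4984833 counts. Levels are given in CPM, reads of a gene relative to all reads of its library, with library totals scaled by TMM factors, and a gene was tested if it held 3 CPM or more in at least 3 libraries, which left 12851 genes. Of the 10 enzymes, 9 were tested. Phgdh reached 3 CPM in 9 WT and 5 KO libraries, the other 8 did so in every library of both genotypes, and Aldh1l2 did so in 1 library. A gene was called where limma's p adjusted over all genes tested was under 0.05 and the log2 fold change was beyond 1 in either direction. Dgcr8 itself kept 38 to 183 reads in each KO library, and its level in monosomes was 74.8 ± 5.75 CPM in WT and 50.2 ± 2.58 CPM in KO (SD, n = 3). Its log2 change was -0.56 in monosomes (adjusted p = 0.0185 by limma), -0.45 in low polysomes (0.0223) and -1.01 in high polysomes (0.000276). Only the high polysome change was called. Reads at the 3′ end do not report a deletion elsewhere in the gene, so these values are no check of the genotype. All 15 pluripotency markers examined were detected, with a summed level of 4421 to 7579 CPM over the WT and 4994 to 5796 CPM over the KO libraries, on plain totals. Within that sum, Lin28a was at a mean of 46.5 CPM in WT and 3.33 CPM in KO, Klf4 at 787 and 489 CPM, and Klf2 at 457 and 1090 CPM, so the markers were not alike in both genotypes, and the part of this in the results was not tested. The 12 markers of fibroblast feeder cells summed to 15.8 to 24.6 CPM in WT and 7.8 to 35.4 CPM in KO. Markers of the formative or primed epiblast summed to 129 to 196 CPM in WT and 135 to 186 CPM in KO, and those of trophoblast to 118 to 206 and 115 to 165 CPM. Tfap2c alone gave most of the trophoblast sum, at a mean of 135 CPM in WT and 121 CPM in KO. The next highest was Gata3 (10.3 and 8.73 CPM), and Cdx2, Elf5 and Hand1 were each under 1 CPM on average in both genotypes. Among the epiblast markers, Pou3f1 was at a mean of 17.4 CPM in WT and 2.23 CPM in KO. Lef1 (2.97 and 8.53 CPM), Sox3 (2.12 and 4.59 CPM) and Dnmt3a (32.1 and 47.4 CPM) went the other way. The 10 primitive endoderm markers summed to 827 to 3444 CPM in WT and 1059 to 6477 CPM in KO. Sparc alone gave most of that sum, at a mean of 1840 CPM in WT and 3280 CPM in KO, while Lama1 (17.8 and 4.76 CPM), Col4a1 (12.4 and 5.77 CPM) and Dab2 (2.73 and 0.667 CPM) were lower in KO, and Gata4, Gata6 and Sox17 were each under 2 CPM on average in both genotypes. In whole lysates, fewer cells that express a gene and less mRNA per cell cannot be told apart.

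The promoters of the 3 enzyme genes that changed most, Phgdh, Psat1 and Mthfd2, are shown beside that of Shmt2, called lower in monosomes only. Each is the RefSeq sequence from 250 bases before to 50 after a transcript start (build GRCm38.p6, read 5′ to 3′ on the gene's strand). Capitals mark CCAAT on either strand, the core letters of the box bound by NF-Y.
Phgdh, chr3:98339920-98340219, minus strand: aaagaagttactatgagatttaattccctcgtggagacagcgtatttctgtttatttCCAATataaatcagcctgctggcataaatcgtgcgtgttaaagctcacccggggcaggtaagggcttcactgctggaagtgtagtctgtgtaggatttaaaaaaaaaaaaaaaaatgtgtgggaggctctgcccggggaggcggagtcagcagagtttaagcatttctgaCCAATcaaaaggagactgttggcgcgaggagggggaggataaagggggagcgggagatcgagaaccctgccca
Psat1, chr19:15925010-15925309, minus strand: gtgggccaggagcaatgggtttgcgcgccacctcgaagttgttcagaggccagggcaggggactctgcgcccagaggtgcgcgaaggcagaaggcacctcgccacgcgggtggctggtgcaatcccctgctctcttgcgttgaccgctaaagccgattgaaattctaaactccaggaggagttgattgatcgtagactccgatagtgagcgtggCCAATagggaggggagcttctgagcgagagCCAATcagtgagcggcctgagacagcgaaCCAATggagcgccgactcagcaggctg
Mthfd2, chr6:83317555-83317854, minus strand: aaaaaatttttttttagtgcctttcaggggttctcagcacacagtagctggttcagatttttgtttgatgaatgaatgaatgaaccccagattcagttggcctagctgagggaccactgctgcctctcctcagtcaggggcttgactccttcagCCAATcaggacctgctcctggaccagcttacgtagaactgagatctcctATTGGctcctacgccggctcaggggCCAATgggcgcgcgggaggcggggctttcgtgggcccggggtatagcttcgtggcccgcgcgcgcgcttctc
Shmt2, chr10:127522395-127522694, minus strand: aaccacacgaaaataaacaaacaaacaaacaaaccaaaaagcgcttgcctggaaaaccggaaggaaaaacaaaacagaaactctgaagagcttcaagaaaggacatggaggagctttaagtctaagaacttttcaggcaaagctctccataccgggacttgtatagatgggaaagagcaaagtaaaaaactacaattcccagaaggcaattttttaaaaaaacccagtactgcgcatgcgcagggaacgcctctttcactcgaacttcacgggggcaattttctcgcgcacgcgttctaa
CCAAT stood 2 times in the Phgdh window, 3 times in that of Psat1 and 3 times in that of Mthfd2, and the Shmt2 window held none. RefSeq promoters were matched for 9 of the 10 enzymes, and Psat1 had a second one, without the letters. Psph held 2 matches and Gldc, Mthfd1 and Shmt1 1 each, against 37.4% of 32851 promoters of the same length that held at least 1. Mthfd1 and Shmt1 were called in no fraction and held a match, while Mthfd1l, also called in no fraction, held no match. CCAAT was added after the sequences had been seen. The promoters shown were picked by the measured changes, so the contrast between them is not a test. The letters TGATGNAA, the core of the element that C/EBP and ATF4 dimers bind, stood in 3.97% of all promoters, and CACGTG, the E-box of MYC and its relatives, in 7.15%. Neither was in the window of any of the 9 enzymes, on either strand, which says only that the letters are not in these bases.

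Because Dgcr8 KO cells lack canonical microRNAs, the 3′ UTRs of the enzymes were searched for GCACTT, the site that pairs with the seed shared by the ESCC family, the main microRNAs of ESCs. Members of the family are shown with bases 2 to 8 in capitals, and the sites with the matched letters in capitals. The shared seed is AAGUGC, and base 8 is not the same in all members. The paper marks naive ESCs as negative for a miR-302 reporter.
mmu-miR-294-3p: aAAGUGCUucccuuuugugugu
mmu-miR-295-3p: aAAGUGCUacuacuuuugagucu
mmu-miR-302b-3p: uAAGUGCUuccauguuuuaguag
Shmt1 3′ UTR, from position 435 of 1040: tgacgtctctGCACTTggcttaggac
Aldh1l2 3′ UTR, from position 313 of 3129: actcacaggcGCACTTaagagttctg
Aldh1l2 3′ UTR, from position 1904 of 3129: cagtctttctGCACTTctggctagga
The site stood in 26.8% of 20639 mouse 3′ UTRs. Among the 10 enzymes it was found in Shmt1, once, and in Aldh1l2 at both positions shown. The longer form AGCACTT, which pairs with bases 2 to 8 of the members shown, was in 13.5% of 3′ UTRs and in none of the enzymes. A member not shown, mmu-miR-291b-3p, has A at base 8, so its bases 2 to 8 pair with TGCACTT. The Shmt1 site and the Aldh1l2 site at position 1904 have that T before GCACTT. The share of all 3′ UTRs with TGCACTT was not taken. Phgdh, Psat1, Psph, Shmt2, Mthfd1, Mthfd2, Mthfd1l and Gldc held no GCACTT, and so no longer form. A match of letters is a description and not evidence of regulation.

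First, each enzyme was compared between genotypes within each fraction. Phgdh, Psat1, Mthfd2 and Gldc were 2.23- to 7.62-fold lower in Dgcr8 KO cells in every fraction, Psph was called lower in monosomes and high polysomes and Shmt2 in monosomes, and no enzyme was called higher in any fraction. In monosomes, 6 of the 9 enzymes tested were called lower, against 9.63% of all genes tested, and none higher, against 8.43%. In low polysomes, 4 were called lower, against 13.6% of all genes, and none higher, against 11.4%. In high polysomes, 5 were called lower, against 17.9%, and none higher, against 15.1%. A call as lower in all 3 fractions, as for Phgdh, Psat1, Mthfd2 and Gldc, was made for 4.44% of all genes. With the adjusted p alone, 8 enzymes were lower in monosomes (37.3% of all genes passed in either direction), 8 in low polysomes (52.3%) and 5 in high polysomes (60.7%), where Mthfd1l was the 1 enzyme to pass as higher. Mthfd1l did not pass there with libraries scaled by total counts. From the lightest to the heaviest fraction, the median log2 change of the 9 enzymes was -1.07, -0.84 and -1.16, beside medians over all genes of -0.05, 0.00 and -0.08. The libraries themselves did not overlap for 9 of 9 enzymes in monosomes, with every KO library below every WT library, which held for 25.7% of all genes. The same was seen for 8 enzymes in low polysomes (28.4% of all genes) and 5 in high polysomes (33.7%).

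**Figure D1:**
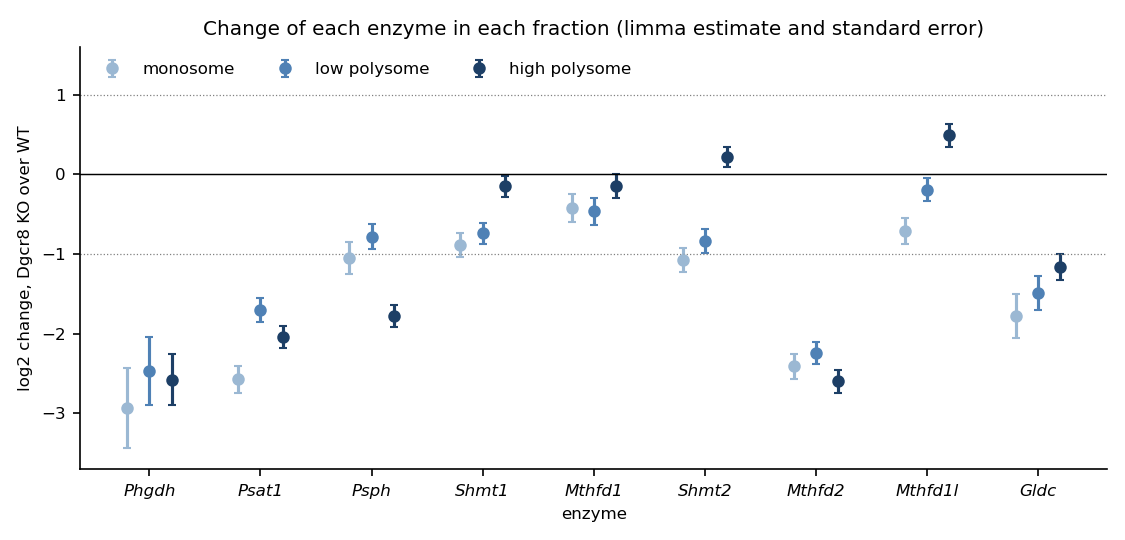
Log2 change (vertical axis, Dgcr8 KO over WT) of the 9 enzymes tested in monosomes, low polysomes and high polysomes, as the limma estimate with its standard error. Dotted lines mark a log2 change of 1 in either direction. Phgdh, Psat1 and Mthfd2 lie between -2.93 and -1.70 in every fraction, while Shmt1, Shmt2, Mthfd1 and Mthfd1l lie between -0.15 and 0.49 in high polysomes.

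Of the serine synthesis enzymes, Phgdh (ENSMUSG00000053398, chromosome 3, 98313170 to 98339990, minus strand), the first and committed step, had the fewest reads. Its level in WT monosomes was 15.4, 13.6 and 22.1 CPM, in low polysomes 9.17, 12 and 13.2 CPM, and in high polysomes 25, 22.7 and 20.1 CPM. In Dgcr8 KO cells, it was 3.34, 0.777 and 3.13 CPM in monosomes, 3.07, 1.92 and 1.31 CPM in low polysomes, and 6.61, 3.73 and 2.30 CPM in high polysomes. Every KO library was below every WT library, and 1 KO monosome library held only 2 reads. Phgdh was 7.62-fold lower in monosomes (log2 change -2.93 ± 0.50 SE, adjusted p = 8.53e-06), 5.54-fold lower in low polysomes (-2.47 ± 0.43, adjusted p = 6.08e-06) and 6.0-fold lower in high polysomes (-2.58 ± 0.32, adjusted p = 6.68e-09), by limma. The counts of Phgdh are uncertain, because 367 of the last 500 bases of its transcript were at least 95% identical, over 50 bases or more, to 6 processed pseudogenes, and reads that fit more than 1 place were not counted. Of these pseudogenes, 5 were in the table, with 0 to 6 reads each over all libraries. The other 9 enzymes had no such bases.

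Psat1 (ENSMUSG00000024640, chromosome 19, 15904678 to 15947337, minus strand), the aminotransferase that takes the amino group from glutamate, was 259, 225 and 281 CPM in WT monosomes, 148, 156 and 158 CPM in low polysomes, and 356, 299 and 418 CPM in high polysomes. In KO cells, it was 47.8, 34.6 and 47.4 CPM, 57.5, 36.8 and 49.7 CPM, and 96.5, 73.6 and 89.6 CPM in the same order. The highest KO library was below the lowest WT library, also across fractions. Psat1 was 5.95-fold lower in monosomes (log2 change -2.57 ± 0.17 SE, adjusted p = 1.68e-15), 3.25-fold lower in low polysomes (-1.70 ± 0.15, adjusted p = 2.51e-12) and 4.12-fold lower in high polysomes (-2.04 ± 0.14, adjusted p = 8.96e-16), by limma. The share of all genes with a lower log2 change than Psat1 was 1.3% in the monosome, 6.1% in the low polysome and 4.3% in the high polysome comparison.

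Psph (ENSMUSG00000029446, chromosome 5, 129765558 to 129787449, minus strand), the phosphatase that releases serine, fell less in the lighter fractions. Its level in WT cells was 40.9, 41.9 and 50.4 CPM in monosomes, 37.4, 43.0 and 38.8 CPM in low polysomes, and 123, 116 and 109 CPM in high polysomes. In KO cells, it was 23.9, 19.8 and 20.4 CPM, 20.9, 19.9 and 28.9 CPM, and 36.4, 29.5 and 35.2 CPM. The genotypes did not overlap within any fraction, and the gap was widest in high polysomes. Psph was 3.43-fold lower there (log2 change -1.78 ± 0.14 SE, adjusted p = 5.25e-14) and 2.08-fold lower in monosomes (-1.05 ± 0.20, adjusted p = 5.48e-05), by limma. In low polysomes, the log2 change was -0.78 ± 0.16 (adjusted p = 0.000109), under the fold asked for a call. The monosome call lay at the fold limit and was lost without WT gradient 3 (-0.97), with libraries scaled by total counts (-0.95) and without the filter on low counts (-0.98).

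**Figure D2:**
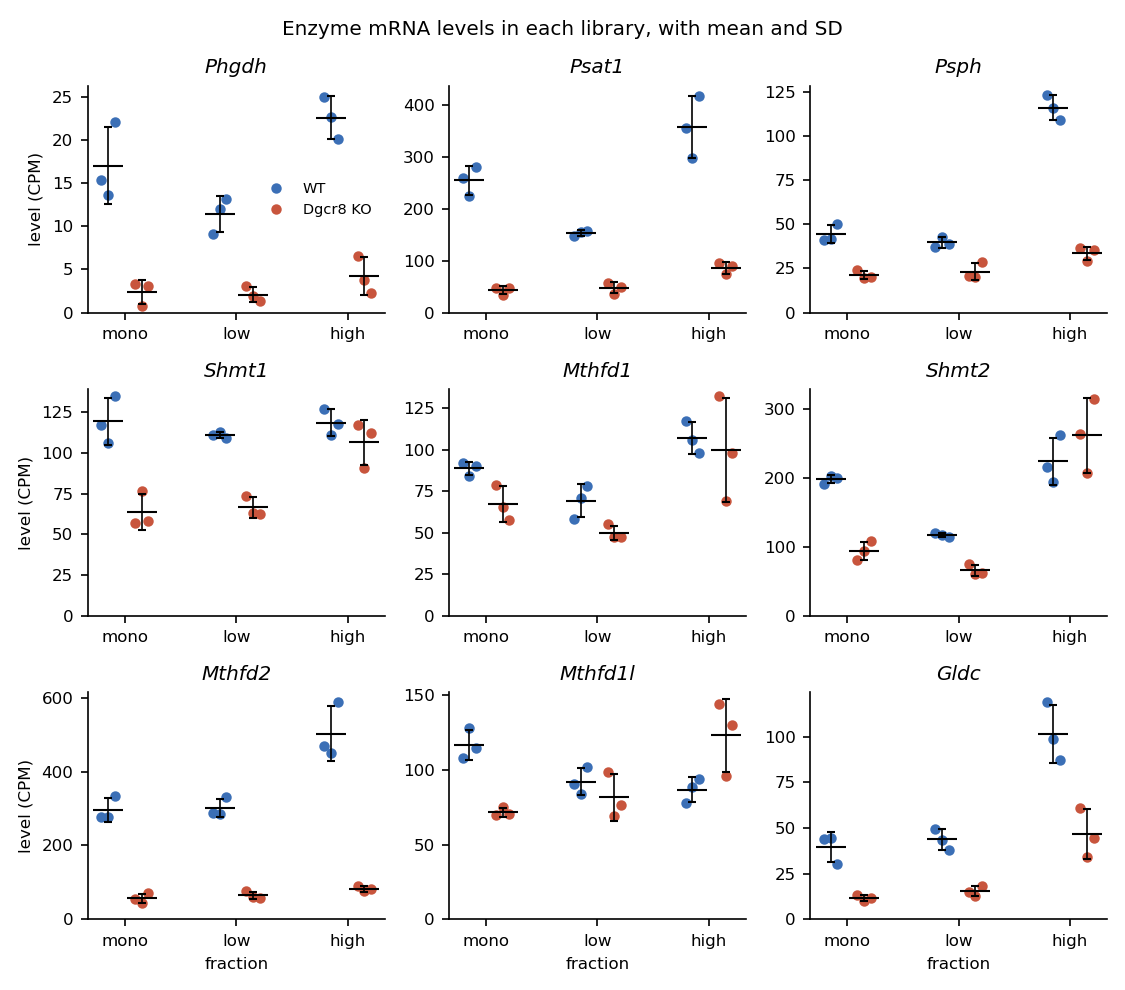
Level of the 9 enzymes tested (vertical axis, CPM from 0) in monosome, low polysome and high polysome libraries of WT and Dgcr8 KO cells. Each point is 1 library, and the bars give the mean and SD of 3 libraries. KO points lie below all WT points in each fraction for Phgdh, Psat1, Psph, Mthfd2 and Gldc, whereas the high polysome points of Shmt1, Shmt2 and Mthfd1 overlap.

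In the cytosol, Shmt1 (ENSMUSG00000020534, chromosome 11, 60788104 to 60811718, minus strand), the serine hydroxymethyltransferase whose 3′ UTR holds the single GCACTT shown above, was 117, 106 and 135 CPM in WT monosomes and 56.7, 76.5 and 58.4 CPM in KO monosomes. In low polysomes, it was 111, 113 and 109 CPM in WT and 73.8, 63.1 and 62.8 CPM in KO. In high polysomes, it was 127, 111 and 118 CPM in WT and 117, 91.0 and 112 CPM in KO, and only there did the genotypes overlap. The log2 change was -0.89 ± 0.15 SE in monosomes (adjusted p = 6.75e-06 by limma), -0.74 ± 0.13 in low polysomes (9.99e-06) and -0.15 ± 0.13 in high polysomes (0.302). None of these passed the fold limit, although the monosome change reached -1.04 without KO gradient 2.

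Mthfd1 (ENSMUSG00000021048, chromosome 12, 76255298 to 76319803, plus strand), the trifunctional enzyme that reattaches formate to tetrahydrofolate, was not called in any fraction. Its level was 91.8, 83.9 and 90.2 CPM in WT and 78.9, 65.2 and 57.6 CPM in KO monosomes. In low polysomes, it was 58.5, 71.1 and 78.0 CPM in WT and 55.0, 47.7 and 47.6 CPM in KO. In high polysomes, WT libraries held 117, 106 and 97.8 CPM and KO libraries 132, 69.3 and 97.7 CPM, so the KO libraries lay on both sides of the WT range. The log2 change was -0.42 ± 0.18 SE in monosomes (adjusted p = 0.0615 by limma), -0.46 ± 0.17 in low polysomes (0.0172) and -0.15 ± 0.15 in high polysomes (0.416). Without KO gradient 2, whose high polysome library was the lowest, the change in high polysomes was 0.08.

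In mitochondria, Mthfd2 (ENSMUSG00000005667, chromosome 6, 83305691 to 83325908, minus strand), a dehydrogenase and cyclohydrolase that is abundant in embryonic and tumour cells, showed the smallest adjusted p of the enzymes in each fraction. Its level in WT cells was 278, 277 and 335 CPM in monosomes, 289, 286 and 331 CPM in low polysomes, and 471, 450 and 588 CPM in high polysomes. In KO cells, it was 55.0, 44.3 and 69.7 CPM, 76.2, 59.0 and 58.3 CPM, and 90.9, 75.2 and 81.4 CPM. No KO library of any fraction reached a WT library of any fraction. Mthfd2 was 5.31-fold lower in monosomes (log2 change -2.41 ± 0.16 SE, adjusted p = 1.38e-15), 4.71-fold lower in low polysomes (-2.24 ± 0.14, adjusted p = 1.15e-16) and 6.08-fold lower in high polysomes (-2.60 ± 0.14, adjusted p = 2.5e-19), by limma. The share of genes with a lower log2 change was 1.6%, 2.9% and 1.9% in the same order.

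Shmt2 (ENSMUSG00000025403, chromosome 10, 127517123 to 127522444, minus strand), the mitochondrial hydroxymethyltransferase that feeds MTHFD2, behaved differently across the gradient. Its level in monosomes was 191, 203 and 200 CPM in WT and 81.2, 93.2 and 108 CPM in KO. Low polysomes held 120, 117 and 114 CPM in WT and 75, 60.2 and 61.7 CPM in KO. In high polysomes, it was 216, 193 and 261 CPM in WT and 263, 206 and 314 CPM in KO. The KO libraries were thus below WT in the lighter fractions and overlapped WT in high polysomes. Shmt2 was 2.10-fold lower in monosomes (log2 change -1.07 ± 0.15 SE, adjusted p = 2.52e-07 by limma). Its log2 change was -0.84 ± 0.15 in low polysomes (adjusted p = 6.08e-06) and 0.22 ± 0.13 in high polysomes (0.153), the latter -0.01 when libraries were scaled by total counts. The monosome change lay close to the fold limit, at -0.97 with total counts, -0.99 without WT gradient 2 and -0.98 without KO gradient 1.

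Mthfd1l (ENSMUSG00000040675, chromosome 10, 3973118 to 4167081, plus strand), the synthetase that releases formate in mitochondria, moved in opposite directions at the 2 ends of the gradient. It was 108, 128 and 115 CPM in WT and 69.5, 74.9 and 70.5 CPM in KO monosomes. In low polysomes, it was 90.6, 84.0 and 102 CPM in WT and 99.0, 69.2 and 76.7 CPM in KO, which overlapped. In high polysomes, the WT libraries held 78.0, 88.3 and 94.3 CPM and the KO libraries 144, 96.3 and 130 CPM, all above WT. The log2 change was -0.71 ± 0.16 SE in monosomes (adjusted p = 0.000458 by limma), -0.19 ± 0.14 in low polysomes (0.284) and 0.49 ± 0.14 in high polysomes (0.00286), none past the fold limit. The high polysome change was 0.27 when libraries were scaled by total counts (adjusted p = 0.098 by limma).

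Aldh1l2 (ENSMUSG00000020256, chromosome 10, 83487450 to 83534140, minus strand) was near the limit of detection. It held 1, 2 and 2 reads in the WT monosome libraries, 5, 5 and 2 in low and 2, 2 and 4 in high polysomes. In KO cells, it held 5, 1 and 5 reads, 5, 15 and 10 reads, and 5, 5 and 10 reads. Summed over 3 libraries, it was 1.25 CPM in WT low polysomes (95% exact Poisson interval 0.648 to 2.19) and 2.95 CPM in KO low polysomes (1.99 to 4.21), and the intervals cover counting error only. When the filter on low counts was dropped, its log2 change was 1.14 in low polysomes (adjusted p = 0.125 by limma) and 0.88 in high polysomes (0.297). A difference was not detectable at this depth.

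Gldc (ENSMUSG00000024827, chromosome 19, 30098447 to 30175429, minus strand), which is highly expressed in naive pluripotent cells, was 44.2, 44.5 and 30.1 CPM in WT monosomes, 49.7, 43.5 and 38.2 CPM in low polysomes, and 119, 98.7 and 87.3 CPM in high polysomes. In KO cells, it was 13.3, 10.1 and 11.8 CPM, 15.1, 12.8 and 18.1 CPM, and 61.2, 34.2 and 44.4 CPM. The genotypes did not overlap within any fraction. Gldc was 3.43-fold lower in monosomes (log2 change -1.78 ± 0.28 SE, adjusted p = 2.44e-06), 2.82-fold lower in low polysomes (-1.49 ± 0.21, adjusted p = 1.07e-07) and 2.23-fold lower in high polysomes (-1.16 ± 0.16, adjusted p = 4.78e-08), by limma. The high polysome change was -0.97 without KO gradient 2, just under the fold limit.

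Next, the translation level, the high polysome to monosome ratio, was examined. In WT cells, Psph and Gldc had a translation level called above 0, 2 of the 9 enzymes against 10.7% of all genes. In Dgcr8 KO cells, Psat1, Shmt2 and Gldc did, 3 of 9 against 17.5%. Each library is scaled on its own, so a ratio is relative to other mRNAs and is not an absolute shift along the gradient. In the 3 WT gradients, the log2 ratio was 1.57, 1.45 and 1.10 for Psph and 1.42, 1.14 and 1.52 for Gldc. These were the 2 highest of the 9 enzymes, and their estimates (1.39 ± 0.16 and 1.33 ± 0.20 SE) were too close to rank. Of the 9 enzymes in WT cells, Mthfd1l had the lowest ratio, at -0.47, -0.54 and -0.28. In KO cells, Gldc had the highest, at 2.14, 1.69 and 1.85, and Psat1 stood at 1.0, 1.08 and 0.91. The Psat1 call in KO cells lay at the fold limit, with an estimate of 1.02, and was lost without KO gradient 2 (0.96), with total counts (0.77), with the stricter filter (0.91) and with the gradient as a replicate block (1.0). Phgdh passed the fold limit only without KO gradient 3, at 1.57.

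The change in translation level between genotypes was called for Shmt2 and Mthfd1l, both higher, 2 of 9 against 6.29% of all genes, and for none lower, against 8.81%. Shmt2 had a log2 ratio of 0.18, -0.07 and 0.39 in the WT gradients and of 1.69, 1.14 and 1.53 in the KO gradients, which did not overlap. Its translation level was 2.44-fold higher in KO cells (log2 change 1.29 ± 0.20 SE, adjusted p = 3.65e-06 by limma). Mthfd1l had 1.05, 0.36 and 0.87 in the KO gradients, all above the WT values given above, and its translation level was 2.29-fold higher (1.20 ± 0.21, adjusted p = 3.34e-05). With libraries scaled by total counts, the median change over all genes moved to -0.32, and Shmt2 and Mthfd1l stood at 0.96 and 0.87, under the fold limit. With the adjusted p alone, 4 enzymes passed, against 28.2% of all genes, the other 2 being Shmt1 (0.74 ± 0.20, adjusted p = 0.00384) and Psph (-0.72 ± 0.24, adjusted p = 0.0226).

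Per gradient, Psat1, Shmt1, Shmt2, Mthfd1l and Gldc had all 3 KO ratios above all 3 WT ratios, 5 of 9 enzymes against 20.3% of all genes. Psph had all KO ratios below. The share of all genes separated in that direction was not taken, so how unusual this is cannot be judged. Shmt1 stood at 0.12, 0.05 and -0.19 in WT and 1.04, 0.25 and 0.94 in KO. Psph stood at 0.59, 0.56 and 0.77 in KO. The limma change of Psat1 was 0.53 ± 0.22 (adjusted p = 0.066), of Gldc 0.62 ± 0.32 (0.151), of Mthfd1 0.28 ± 0.24 (0.415) and of Mthfd2 -0.20 ± 0.21 (0.524). Mthfd2, which fell in every fraction, had high polysome to monosome ratios of 0.76, 0.70 and 0.81 in WT and 0.72, 0.75 and 0.22 in KO, which overlapped. Its high to low polysome ratios were 0.70, 0.65 and 0.83 in WT and 0.25, 0.35 and 0.48 in KO, all KO below all WT, with a limma change of -0.37 ± 0.20 (adjusted p = 0.204). For this separation, too, no share of all genes was taken. With libraries scaled by total counts, the change of Mthfd2 was -0.52 over monosomes (adjusted p = 0.0495) and -0.57 over low polysomes (0.0314), where the medians of all genes moved to -0.32 and -0.25. Phgdh was too sparse for its change to be read, at 0.35 ± 0.59 (adjusted p = 0.713), and took the opposite sign, -0.34, without KO gradient 2.

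**Figure D3:**
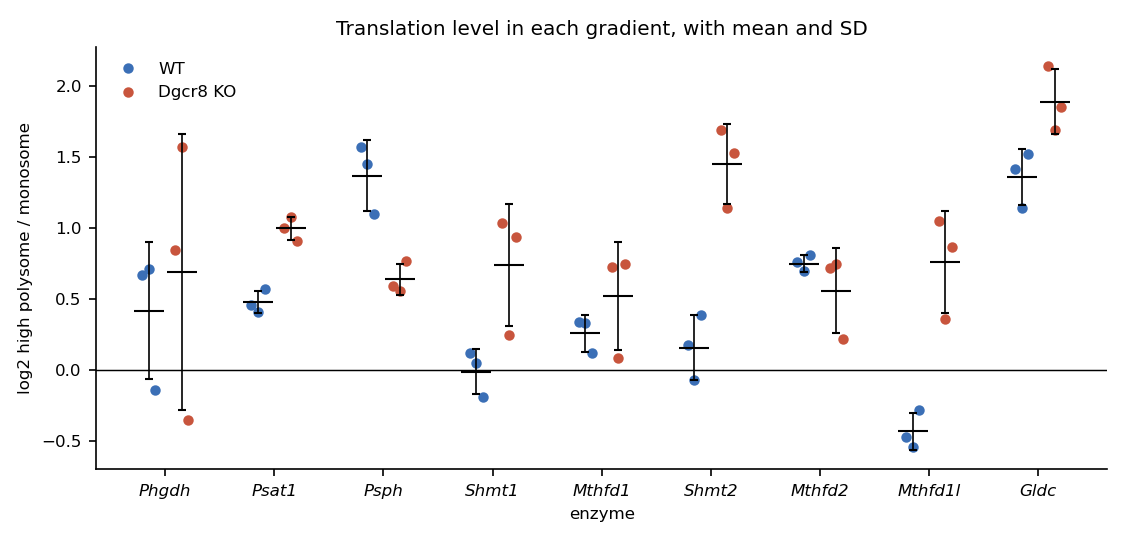
Translation level (vertical axis, log2 of the high polysome to monosome ratio) of the 9 enzymes tested in each gradient of WT and Dgcr8 KO cells. Each point is 1 gradient, and the bars give the mean and SD of 3 gradients. Shmt2 and Mthfd1l rose from means of 0.16 and -0.43 in WT to 1.45 and 0.76 in KO, and Psph went from 1.37 to 0.64.

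The 2 steps of the gradient were also compared apart. The change in the low polysome to monosome ratio was called for none of the 9 enzymes, against 5.03% of all genes in either direction, and by limma the smallest adjusted p was that of Psat1 (log2 change 0.87 ± 0.23, adjusted p = 0.00735), the only enzyme with an adjusted p under 0.05. The change in the high to low polysome ratio was called for Shmt2, 1 of 9 against 2.29% of all genes called higher, at 1.05 ± 0.20 (adjusted p = 0.000184). Shmt2 had log2 ratios of high to low polysomes of 0.84, 0.72 and 1.19 in WT and 1.80, 1.76 and 2.33 in KO. The change was 0.86 without KO gradient 3, under the fold limit. Psph changed in the opposite direction, by -1.0 ± 0.22 (adjusted p = 0.00097), just inside the fold limit, and was called without WT gradient 2 (-1.01) or 3 (-1.03) and without KO gradient 1 (-1.12) or 2 (-1.01). Its ratios of high to low polysomes were 1.70, 1.42 and 1.47 in WT and 0.78, 0.55 and 0.28 in KO.

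In these data the change in translation level moved with the length of the coding sequence, so each enzyme was set beside protein-coding genes of its own length decile. The decile median went from -0.94 for the shortest to 0.62 for the longest coding sequences. Shmt2 (1515 bases) exceeded its decile median of 0.10 by 1.18, with 95.1% of the 1176 genes of the decile below it. Mthfd1l (2934 bases) exceeded its median of 0.49 by 0.70, with 88.6% below it, and Shmt1 (1437 bases) and Psat1 (1113 bases) exceeded theirs by 0.63 and 0.68. Psph (678 bases) was 0.08 below its median of -0.64, Mthfd2 (1053 bases) 0.05 below, and Mthfd1 (2808 bases) 0.22 below. Gldc (3078 bases) stood 0.13 above. The part of length in these changes was not tested.

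**Figure D4:**
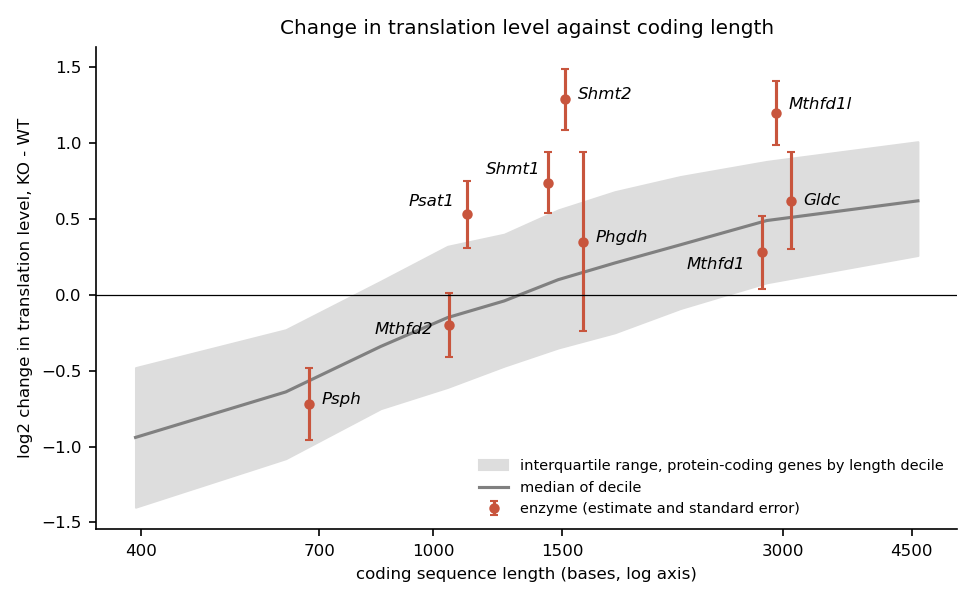
Log2 change in translation level (vertical axis, KO minus WT) against coding sequence length (horizontal axis, bases, log scale). The line and band give the median and the interquartile range of protein-coding genes in each length decile, and points are the 9 enzymes tested with their standard errors. Shmt2, Mthfd1l, Shmt1 and Psat1 lie above the band, and the other 5 enzymes inside it.

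Ratios of reads between enzymes of the same library do not depend on how libraries are scaled, and were compared between genotypes. The ratio of Mthfd2 to Mthfd1l reads, enzymes of the same mitochondrial route, was 2.55 ± 0.378 in WT and 0.791 ± 0.199 in KO monosomes (SD, n = 3). In high polysomes, it was 5.79 ± 0.610 in WT and 0.679 ± 0.0882 in KO, and no library of one genotype reached the other in any fraction. The ratio of Mthfd2 to Shmt2 reads in high polysomes was 2.25 ± 0.0729 in WT and 0.324 ± 0.0566 in KO. The ratio of Shmt2 to its cytosolic counterpart Shmt1 ran from 1.48 to 1.91 in WT and 1.22 to 1.85 in KO monosomes, which overlapped, and from 1.70 to 2.21 in WT and 2.24 to 2.79 in KO high polysomes, which did not. In low polysomes, this ratio went the opposite way, from 1.03 to 1.08 in WT and from 0.954 to 1.02 in KO, also without overlap. Of 15 such comparisons (5 ratios in 3 fractions), each one whose genotypes did not overlap had an exact two-sided permutation p of 0.1, the smallest that 3 against 3 libraries allow, and 0.136 after Benjamini-Hochberg adjustment.

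**Figure D5:**
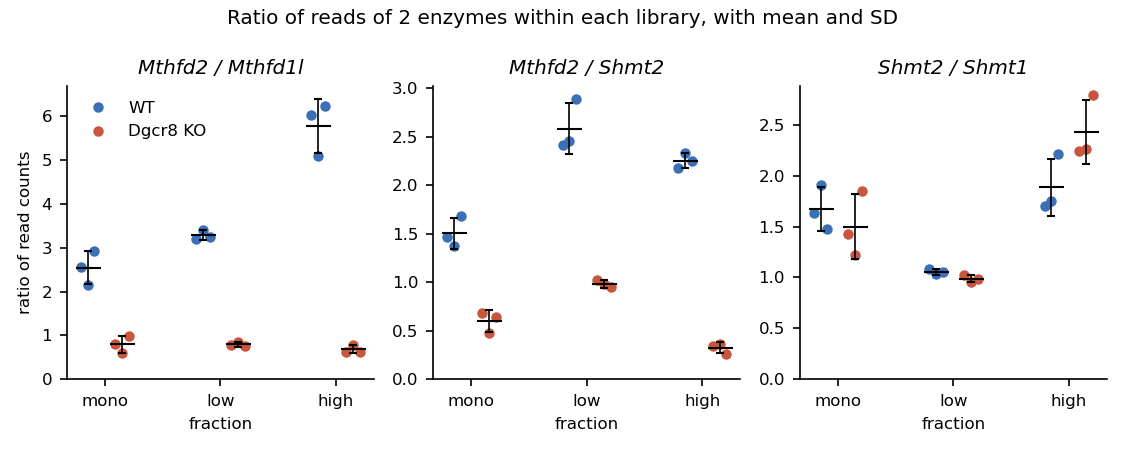
Ratio of read counts (vertical axis, from 0) of Mthfd2 to Mthfd1l, Mthfd2 to Shmt2, and Shmt2 to Shmt1 within each library, by fraction, in WT and Dgcr8 KO cells. Each point is 1 library, and the bars give the mean and SD of 3. The first 2 ratios are lower in every KO library, and the third is higher in KO in high polysomes, from 2.24 to 2.79.

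Across the 18 libraries, the log2 levels of Psat1 and Mthfd2 ran most nearly together among the enzymes (Pearson's r = 0.97), followed by Phgdh with each of them (0.96). Psph and Mthfd1l were least alike (0.19). Among 7451 genes with a mean count of 50 or more, the gene most like Phgdh was Mthfd2 (r = 0.957). The gene most like Mthfd2 was the homeobox gene Rhox5 (0.973), that most like Psat1 was Fblim1 (0.983), and that most like Gldc was Tex19.1 (0.976). Shmt2 ran closest to Eif3d (0.981), a subunit of the translation initiation factor eIF3, Psph to the mitotic kinase Aurka (0.975) and Shmt1 to Elmo2 (0.956). Mthfd1 ran closest to Abcf2 (0.922) and Mthfd1l to Gpi1 (0.849), the glycolytic glucose-6-phosphate isomerase. The libraries fall into 6 groups, so these coefficients are descriptions and carry no p.

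Of 47 other genes of folate, serine, glycine and methionine metabolism, 40 were tested, and 4 of these passed the filter on low counts through the WT libraries alone. The monosome comparison called 4 of the 40 higher and 6 lower (8.43% and 9.63% of all genes), the low polysome comparison 5 and 5 (11.4% and 13.6%), and the high polysome comparison 6 and 5 (15.1% and 17.9%), shares near those of all genes. Genes that passed through WT alone (Aldh1l1, Gnmt, Mthfs and Srr) made up 2 of the 6, 3 of the 5 and 2 of the 5 called lower. The medians were -0.07, 0.19 and -0.03. Those called lower in all 3 fractions were Slc1a4, a transporter of serine and other small neutral amino acids (log2 change -1.91, -1.57 and -1.33 in monosomes, low and high polysomes), and Gnmt, the glycine N-methyltransferase. Gnmt held 2 to 24 reads per library and reached 3 CPM in 9 WT and 0 KO libraries, so it was tested only through the genotype in which it is high, and its difference is not counted as support. Those called higher in all 3 were the folate receptor Folr1 (1.54, 1.92 and 1.63), the methionine synthase Mtr (1.13, 1.12 and 1.80) and Bhmt2 (2.33, 2.32 and 2.26), which methylates homocysteine.

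The partners of GLDC in glycine cleavage differed among themselves. Amt, the aminomethyltransferase, had a log2 change of 0.35 ± 0.14 SE, 0.55 ± 0.13 and 0.45 ± 0.12 from the lightest to the heaviest fraction. Dld, the dihydrolipoamide dehydrogenase that other complexes share, stood at -0.02 ± 0.29, 0.71 ± 0.20 and 0.50 ± 0.16. Gcsh, the lipoyl carrier protein, stood at -0.26 ± 0.11, -0.95 ± 0.10 and -0.91 ± 0.11, with adjusted p = 0.0719, 4.59e-10 and 5.06e-09 by limma, so it was lower in both polysome fractions by just under the fold limit. None of the 3 passed the fold limit in any fraction. The serine carrier Sfxn1, which brings serine into mitochondria, was at -0.04 ± 0.14, 0.10 ± 0.13 and -0.33 ± 0.13, and was not called either. Aldh1l1, the cytosolic relative of Aldh1l2, also passed the filter through WT libraries alone (8 of 9, and 0 in KO). It held 2 to 25 reads per library, with log2 changes of -1.70, -1.63 and -0.91 (adjusted p = 0.0174, 0.00271 and 0.101 by limma). Mthfd2l, the relative of Mthfd2, held 0 to 4 reads per library and was not tested.

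Of the 40 genes, 6 had a higher translation level in KO cells, against 6.29% of all genes, and 1 a lower one, against 8.81%. The higher ones were the transporters Slc6a9 for glycine (1.79 ± 0.44, adjusted p = 0.00186) and Slc1a5 for glutamine and other neutral amino acids (1.02 ± 0.16, adjusted p = 7.33e-06), the mitochondrial carrier Sfxn2 (1.11 ± 0.21, adjusted p = 9.28e-05), Mat2a (1.28 ± 0.17, adjusted p = 3.91e-07), which makes S-adenosylmethionine, and Ahcy (1.14 ± 0.32, adjusted p = 0.00632) and Ahcyl2 (1.20 ± 0.40, adjusted p = 0.0196). The lower one was Slc25a32, a mitochondrial carrier for folate (-1.50 ± 0.46, adjusted p = 0.0111), at 9 to 78 reads per library. Slc6a9 (7 to 59 reads), Ahcyl2 (10 to 86) and Ahcy (14 to 93) were sparse too. Slc6a9, Slc1a5 and Ahcy did not rise in high polysomes (log2 change -0.33, -0.32 and -0.31). Their monosome levels were lower in KO cells (-2.12, -1.34 and -1.45). Sfxn2, Mat2a and Ahcyl2 had positive changes in high polysomes (0.74, 1.32 and 0.51).

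Atf4 was lower in KO cells in every fraction, and most in high polysomes. Its level in monosomes was 952 ± 36.1 CPM in WT and 458 ± 71.2 CPM in KO (SD, n = 3). In low polysomes, it was 1520 ± 122 CPM in WT and 228 ± 1.15 CPM in KO, and in high polysomes 1006 ± 35.6 CPM in WT and 106 ± 12 CPM in KO. The log2 change was -1.06 ± 0.11 SE in monosomes (adjusted p = 6.16e-10 by limma), -2.74 ± 0.11 in low polysomes (1.1e-22) and -3.25 ± 0.12 in high polysomes (2.98e-24). Its translation level fell by 2.18 on the log2 scale (adjusted p = 1.92e-12). Myc held 0 to 4 reads per library and was not tested. Whether Atf4 has a part in the changes of the enzymes was not tested.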

How the data were processed

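Polysome fractions of WT and Dgcr8 KO ESCs were analysed from the deposited raw counts of reads per gene. Per the labels and the study's methods, the authors made these counts by trimming adapters and poly(A) with cutadapt 1.14, aligning single-end 50-base reads to mm10 with STAR 2.5.3a, keeping reads with 1 locus, and counting by strand over GENCODE M14 exons without ribosomal RNA genes, with featureCounts 1.5.3. No molecular identifiers were stated, so PCR copies count as reads, and reads of near-identical copies were lost. The deposited table also holds an exonic length per gene in bases, which was used only as an annotation. It held 51467 genes and 92 spike-in entries, whose share was at most 0.00215% of a library and which were left out. Symbols came from GENCODE M21 (same build), with 51274 genes matched. Sequences came from RefSeq (GRCm38.p6), and 3′ UTR sites from GENCODE M21 transcripts. Likeness of Phgdh to other genes was found with BLAST 2.17.0.

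Genes with 3 CPM in at least 3 libraries were fitted with limma-voom (limma 3.58.1, R 4.3.3), with TMM factors, 1 mean per group and no block. limma and the interaction term follow the study's methods, while voom and TMM were chosen here. All p-values are two-sided, and those called adjusted were corrected by the Benjamini-Hochberg method over 12851 genes. Log2 ratios per gradient used a prior count of 2. The fit was tested on simulated data. Permutation tests used scipy 1.17.1. Alternatives were total counts, DESeq2 size factors, edgeR 4.0.16, DESeq2 1.42.0, other filters (none, or 10 CPM), no fold limit, only the libraries compared, a replicate block, and leaving out each gradient. The floor was 3 counts, about 2.6 CPM in the smallest library.

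The members, gene lists, motifs and tests were chosen with earlier results of these data known. Named by rule were the 10 enzymes, Dgcr8, fixed pathway genes (Mthfd2l, Aldh1l1, Amt, Gcsh, Dld, Sfxn1, Slc25a32 and Atf4), pathway genes called in the same direction in all 3 fractions or in translation level, and the gene most like each enzyme. The labels tie the fractions of a gradient to the same number, so these are paired within a genotype. Deviations from group means correlated at 0.032 to 0.135 between fractions of the same gradient (18 pairs, 4 over 0.1), and at -0.14 to 0.076 between gradients of the same genotype. Between genotypes, they correlated at 0 to 0.102 for the same number (27 pairs) and at -0.099 to 0.055 for different numbers (54 pairs). Whether a number also ties WT to KO gradients was not tested.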

Additional observations from a re-analysis of the deposited data

Results flagged for a closer look

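The difference between genotypes in how an mRNA is spread over the gradient was tested with an interaction term, and was called for Shmt2 and Mthfd1l. In the high polysome to monosome ratio, Shmt2 changed by 1.29 and Mthfd1l by 1.20 on the log2 scale, with adjusted p = 3.65e-06 and 3.34e-05 by limma. In the high to low polysome ratio, Shmt2 changed by 1.05, with adjusted p = 0.000184. In each case, all 3 KO gradients lay above all 3 WT gradients. Groups of 3 are too small for a test of single outlying libraries.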

How the results depend on the processing

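When libraries were scaled by their total counts alone, the median change in translation level over all genes moved to -0.32 and that in high polysomes to -0.31. Shmt2 and Mthfd1l then changed in translation level by 0.96 and 0.87, so 0 enzymes were called higher and 1 lower (Psph). Relative to that median, they stood at 1.28 and 1.19. In the high to low polysome ratio, 0 enzymes were called higher and 1 lower. Signs turned under total counts for Shmt2 in high polysomes (-0.01), Shmt1 in WT translation level (0.08) and Mthfd1 in change of translation level (-0.05). In the high to low polysome ratio, 1 enzyme (Psph) was also called lower with edgeR, no filter, the stricter filter and the replicate block. Shmt1 in WT translation level was 0.10 without the filter. With DESeq2, Phgdh in the high to low ratio was 0.04.

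With the adjusted p alone, 8 enzymes were lower in low polysomes, and 1 was higher and 5 lower in high polysomes. In WT translation level, 4 were higher and 1 lower, and in KO translation level, 8 were higher. In change of translation level, 3 were higher and 1 lower. In the low polysome to monosome ratio, 1 was higher, and in the high to low ratio, 3 were higher and 1 lower. Over all genes, the adjusted p alone gave 4797, 6716 and 7802 calls in monosomes, low and high polysomes against 2320, 3216 and 4249. For the ratios, it gave 6944, 8701, 3621, 1464 and 2288. Without the filter, 3679 genes were called in monosomes and 6958 in WT translation level.

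Leaving out 1 gradient in turn gave 0 to 1 enzymes higher and 0 to 1 lower in the high to low ratio. Signs turned within these ranges: Shmt1 in WT translation level (-0.06 to 0.08), Mthfd1 in the low polysome to monosome ratio (-0.18 to 0.03) and in high polysomes (-0.36 to 0.08), and Phgdh in change of translation level (-0.34 to 1.13), of the low polysome to monosome ratio (-0.20 to 1.12) and of the high to low ratio (-0.31 to 0.09). The replicate block changed no other call than those of Psat1 in KO translation level and Psph in the high to low ratio, with 2 enzymes called higher in change of translation level as without it. Causes were not tested. Of 1080 single estimates under the alternatives, 1019 kept both sign and call. Depth limits Phgdh and Aldh1l2 most.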
